A study of Komagataella pastoris with 15 samples.

Results

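A group of 155 transcripts of the yeast Pichia pastoris had its highest level at the end of a fed-batch fermentation. The members were chosen from the authors' deposited log2 table, in which the 3 arrays of each phase were averaged. A probe was kept when its mean at the end of fermentation lay at least 1 log2 unit, which is 2-fold, above the highest of the other 4 phase means. This rule was met by 155 of the 3915 probes (3.96%), and each belonged to a different locus tag. Since the rule used these levels, every value that sets the end of fermentation against another phase is a description here and carries no support of its own.

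Pichia pastoris (Komagataella pastoris in the labels) is a methylotrophic yeast, able to grow on methanol as its carbon source, and is widely used to secrete recombinant proteins. In a fed-batch process biomass is first grown on glycerol, the glycerol feed is stopped, and methanol is then fed, which switches on the methanol pathway and the promoters commonly used to drive a foreign gene. Late in such a process the culture is dense, cells grow slowly, and proteases released into the medium can break down the secreted protein. The foreign protein here was recombinant human serum albumin (rhHSA), the main carrier protein of blood plasma.

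The samples came from 40 L fermentors numbered 1 to 3, each sampled at the same 5 phases, which gave 15 arrays, with 3 for every phase. They ran, in order, through logarithmic growth, then the end of glycerol feeding (carbon-starved for 40 min, at the start of methanol feeding), methanol-adapted culture, the arrays labelled as having the peak rate of rhHSA expression, and fermentation end, when rhHSA had dropped to 220 mg/L. All phases share the organism and the product. The labels used here name no strain, promoter or clone, so these limits of the model cannot be given. Total RNA was labelled with a single dye and hybridised to Agilent arrays that carry 5039 tags with 3 spots each.

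Several features of the arrays bear on the values below. The file headers give 2 scan dates, here called scan 1 and scan 2. The 7 arrays of scan 1 were the 3 from the end of fermentation and, from each of the first 4 phases, the one of fermentor 1. The remaining 8 arrays belonged to scan 2. Logarithmic growth arrays 2 and 3 differed beyond the noise between spots in 1.94% of probes and enter as a single sample the means printed for that phase with n = 2, while the rule and the fits used all 3 arrays. The 3 end of fermentation arrays differed from each other beyond that noise in 6.7% to 8.85% of probes, as did arrays 2 and 3 of the end of glycerol feeding in 7.67%. The SD of these arrays may hold little spread between cultures, and the p-values that rest on them count them as separate replicates. The arrays labelled rhHSA peak correlated across all tested probes at r = 0.976 with logarithmic growth and at r = 0.918 with methanol-adapted culture, the phase before them. Whether that label is right was not tested. The rule without them keeps 163 probes. All 155 members are among these by construction, since leaving out a phase cannot lower a margin, so this says nothing about the label. The number of arrays limits the precision of all values.

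The files name each probe by its locus tag alone, and 0 of the 5039 tags matched the 5305 entries of the reference table for another assembly. No gene names, functions or sequences are therefore given, and each comparison names no more than 2 rises and 2 falls. All 155 members had a value on all 15 arrays and passed the filter on dim probes. On the end of fermentation arrays all 155 were well above background, on the full 15 arrays 153 were, and 0 had a saturated spot.

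In the authors' log2 values the members had a median level of 12.05 in logarithmic growth, 12.18 at the end of glycerol feeding, 12.20 in methanol-adapted culture, 11.89 on the arrays labelled rhHSA peak and 14.00 at the end of fermentation. The median over all 3915 probes stayed between 12.59 and 12.68 in the 5 phases. The members thus lay below the middle of the table in the first 4 phases and above it at the end. At the end of fermentation 37 members (23.9%) were among the highest 10% of probes, against 6 in logarithmic growth, 9 at the end of glycerol feeding, 10 in methanol-adapted culture and 8 on the arrays labelled rhHSA peak. Their levels at the end ran from 8.20 to 17.94, so the group holds dim and bright probes alike. The RNA came from whole cultures, in which fewer cells of a kind and less RNA per cell cannot be told apart.

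The margin, which is the end of fermentation mean minus the highest of the other 4 phase means, had a median of 1.29 and a highest value of 4.27. It was at least 1.5 in 48 members, at least 2 in 17 and at least 3 in 4. Many members lay close to the threshold. The 3 probes just inside it had margins of 1.003, 1.006 and 1.007, and the 3 just outside had 0.997, 0.993 and 0.993. Over all probes of the table the median margin was -0.46, and 1082 (27.6%) were highest at the end of fermentation by any amount. By the same rule 45 probes were highest in methanol-adapted culture, 23 in logarithmic growth, 8 at the end of glycerol feeding and 1 on the arrays labelled rhHSA peak. A further 129 probes were lowest at the end of fermentation by the same margin.

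**Figure D1:**
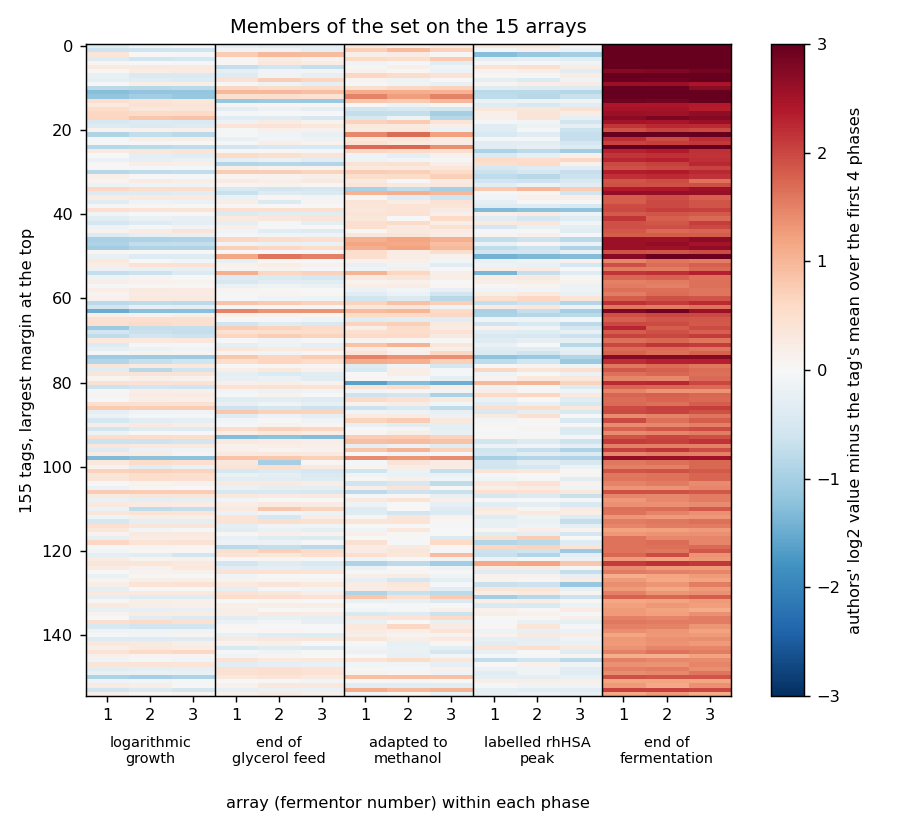
Each row is 1 of the 155 tags, ordered by margin with the largest at the top, and each column is 1 of the 15 arrays, grouped by phase and numbered by fermentor. Colour gives the authors' log2 value minus the tag's mean over the first 4 phases, with values beyond 3 drawn in the end colour. The 3 end of fermentation columns are red throughout, while the first 4 phases show mixed, paler colours.

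Set against single phases, the members' levels at the end of fermentation were higher by a median of 1.75 log2 units (3.37-fold) than in logarithmic growth, with a range from 1.02 to 4.78. The median was 1.73 (3.32-fold) above the end of glycerol feeding, 1.57 (2.97-fold) above methanol-adapted culture and 1.97 (3.91-fold) above the arrays labelled rhHSA peak. The corresponding medians over all probes of the table were 0.03, 0.03, 0.05 and 0.00 log2 units. A difference of at least 3 log2 units was held by 21 members against logarithmic growth, 13 against the end of glycerol feeding, 12 against methanol-adapted culture and 23 against the arrays labelled rhHSA peak. From its lowest phase to the end of fermentation a member differed by 1.22 to 5.16 log2 units, with a median of 2.27.

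The members were highest at the end in each fermentor of the authors' table. The end of fermentation was the highest of the 5 values for all 155 members in each of the 3 fermentors. Over all 3915 probes it was the highest for 1061, 1085 and 1081 in fermentors 1, 2 and 3. The margin was at least 1 in 139 members in fermentor 1 (against 3.78% of all probes). It was so in 130 in fermentor 2 (3.68%) and in 144 in fermentor 3 (4.16%). The rule averaged these same values, so the counts are a description. The 3 end of fermentation arrays also differed from each other in few probes, as given above. In fermentors 2 and 3 the end was on scan 1 and the other phases were on scan 2. The median margins were 1.25, 1.26 and 1.35 in fermentors 1, 2 and 3, and the lowest were 0.86, 0.69 and 0.42. Across arrays, every end of fermentation value lay above all 12 others for 155 members, where 21.2% of all probes of the table did so. The SD between the 3 end of fermentation arrays had a median of 0.064 over members, close to the 0.066 over all probes, and a highest value of 0.31. Members varied more between arrays in methanol-adapted culture and on the arrays labelled rhHSA peak, with a median SD of 0.124 in both, against 0.108 over all probes in both.

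The scanner intensities were then used without the authors' processing, as log2 signal with each array's 75th percentile subtracted. There the median margin was 1.09, with a range from -1.20 to 3.74, and 88 members reached 1. The end of fermentation was the highest phase for 148 members and was not for 7. In these values every end of fermentation array lay above the other 12 for 136 members, where 12.7% of the 5024 tested tags did so. The arrays of the first 4 phases differed between scans, so that fermentor 1 minus the mean of the other fermentors had an SD over members of 0.66 to 0.72 log2 units in the 4 phases, against 0.14 to 0.16 in the authors' table. Over all tested tags this SD was 0.7 to 0.81 in the scanner values. The 7 members that were not highest at the end had a difference of scan 1 minus scan 2 between -2.66 and -1.30 log2 units, while the end of fermentation has arrays of scan 1 alone.

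Scan 1 alone compares the 3 end of fermentation arrays with 1 array of each other phase, and allows no test. On it every end of fermentation array lay above the other 4 for all 155 members, where 18.7% of tested tags did so. The median margin was 1.14, with a range from 0.32 to 4.09, and 106 members reached 1, as did 124 (2.47%) of all tested tags. The 7 members above had margins of 0.58 to 1.17 on scan 1. Dim members had the smaller margins there. Of the 19 members with an authors' log2 level under 11 at the end of fermentation, 7 (36.8%) reached 1, and their median margin was 0.73 on scan 1 and 1.37 in the authors' table. Of the 136 at 11 or above, 99 (72.8%) reached 1, with medians of 1.15 and 1.29.

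**Figure D2:**
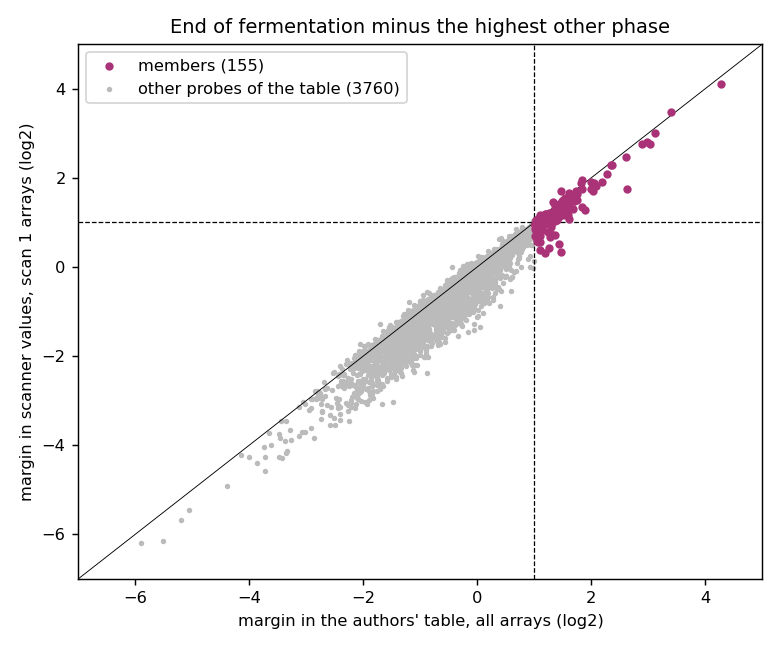
Margin of the end of fermentation over the highest other phase, in log2 units, for the probes of the authors' table, with the authors' table on the horizontal axis and scanner values of scan 1 on the vertical axis. The 155 members (purple) lie right of the dashed line at 1 by the rule and between 0.32 and 4.09 on scan 1, and the solid line marks equal values.

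The limma model was fitted to the scanner values of all 15 arrays, and p-values were adjusted over 5024 tags by the Benjamini-Hochberg method, with 0.05 as the threshold. These tags, the comparator here and below, include some left out of the authors' table, which the rule could not choose. Against logarithmic growth 138 of 155 members were called higher at the end of fermentation (20.2% of all tested tags were), and 135 were against the end of glycerol feeding (20.6%). Against methanol-adapted culture 136 were called higher (24.8%), and 139 were against the arrays labelled rhHSA peak (23.1%). No member was called lower in these 4 comparisons. With scan as a block the counts were 155 (28.2%), 152 (29.3%), 154 (33.9%) and 155 (31.0%) in the same order. The median fitted difference was 1.40, 1.45, 1.37 and 1.70 log2 units without the block and 1.5, 1.56, 1.49 and 1.74 with it. These comparisons chose the members, so nothing is read from their counts.

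The tags named next had the largest fitted differences at the end of fermentation in the fit without a scan block. Other values rank the members differently. The rule and this ranking both chose the tags on these differences, so their p-values are descriptive and carry no support. In that fit the largest difference from logarithmic growth was that of PAS_chr1-1_0319, which was in place 3 with scan as a block, on scan 1 and in the authors' table. Its signal on the 3 arrays in fermentor order was -2.10, -2.23 and -2.35 in logarithmic growth, -0.63, -0.71 and -0.75 at the end of glycerol feeding, 0.36, 0.03 and 0.31 in methanol-adapted culture, -1.83, -2.14 and -1.88 on the arrays labelled rhHSA peak, and 2.24, 2.17 and 2.14 at the end of fermentation. The tag was thus at an intermediate level at the end of glycerol feeding and in methanol-adapted culture, low on the arrays labelled rhHSA peak, and highest at the end, with no overlap between the end and any other phase. The end of fermentation exceeded logarithmic growth by 4.41 ± 0.12 log2 units (SE), which is 21.2-fold (limma adjusted p = 9.82e-11), and exceeded the arrays labelled rhHSA peak by 4.13 ± 0.12 (17.5-fold, limma adjusted p = 2.12e-10). On scan 1 alone these differences were 4.28 and 4.01, where the highest among members were 4.50 and 4.97.

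In the fit without a scan block PAS_chr1-4_0042 had the second largest difference from logarithmic growth and the largest from methanol-adapted culture and from the arrays labelled rhHSA peak. Its signal was -2.04, -3.42 and -3.49 in logarithmic growth, -1.73, -2.50 and -2.51 at the end of glycerol feeding, -2.32, -3.48 and -3.46 in methanol-adapted culture, -3.69, -4.68 and -4.22 on the arrays labelled rhHSA peak, and 1.28, 1.26 and 1.29 at the end of fermentation. The end of fermentation arrays stood far above all others, and in each of the first 4 phases the array on scan 1 was the highest of its phase. The end of fermentation exceeded the arrays labelled rhHSA peak by 5.47 ± 0.42 log2 units (SE; 44.4-fold, limma adjusted p = 4.14e-07), methanol-adapted culture by 4.37 ± 0.42 (20.6-fold, limma adjusted p = 3.45e-06) and logarithmic growth by 4.26 ± 0.42 (19.1-fold, limma adjusted p = 4.19e-06). Fitted with a block for scan, the 3 differences were 4.79, 3.68 and 3.58, each with an SE of 0.16, and on scan 1 alone they were 4.97, 3.60 and 3.32. It stayed first among members against the arrays labelled rhHSA peak in both, but was in place 2 against methanol-adapted culture in both, and against logarithmic growth in place 11 with the block and 12 on scan 1.

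PAS_chr2-1_0642 had the largest margin of all members, at 4.27 in the authors' table. Its signal stayed within a narrow band in the first 4 phases, at -4.19, -3.45 and -3.42 in logarithmic growth, -4.32, -3.69 and -3.66 at the end of glycerol feeding, -3.88, -3.57 and -3.17 in methanol-adapted culture and -3.80, -3.26 and -3.29 on the arrays labelled rhHSA peak, and was 0.29, 0.39 and 0.20 at the end of fermentation. The end exceeded the end of glycerol feeding by 4.18 ± 0.26 log2 units (SE; 18.1-fold, limma adjusted p = 9.07e-08) and methanol-adapted culture by 3.83 ± 0.26 (14.3-fold, limma adjusted p = 1.75e-07). Against the end of glycerol feeding it ranked first among members in the fits with and without a scan block, on scan 1 and in the authors' table, and against methanol-adapted culture it did so with scan as a block, where the difference was 4.24, on scan 1 and in the authors' table. Here the scan 1 arrays were the lowest of their phases, and the differences were larger on scan 1 alone, at 4.61 and 4.17.

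PAS_chr1-1_0070 had the second largest difference from the end of glycerol feeding in the fit without a scan block, with -2.84, -2.84 and -2.80 at the end of fermentation, against -5.96, -7.16 and -7.20 at the end of glycerol feeding. The fitted difference was 3.95 ± 0.57 log2 units (SE; 15.4-fold, limma adjusted p = 0.000102), and it was 3.00 ± 0.16 with scan as a block and 3.13 on scan 1, where it was in place 8 and in place 7 among members. Both scan 2 arrays of the end of glycerol feeding lay over 1 log2 unit below the array on scan 1. The tag was well above background on all 15 arrays, and its end of fermentation values lay apart from all others.

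**Figure D3:**
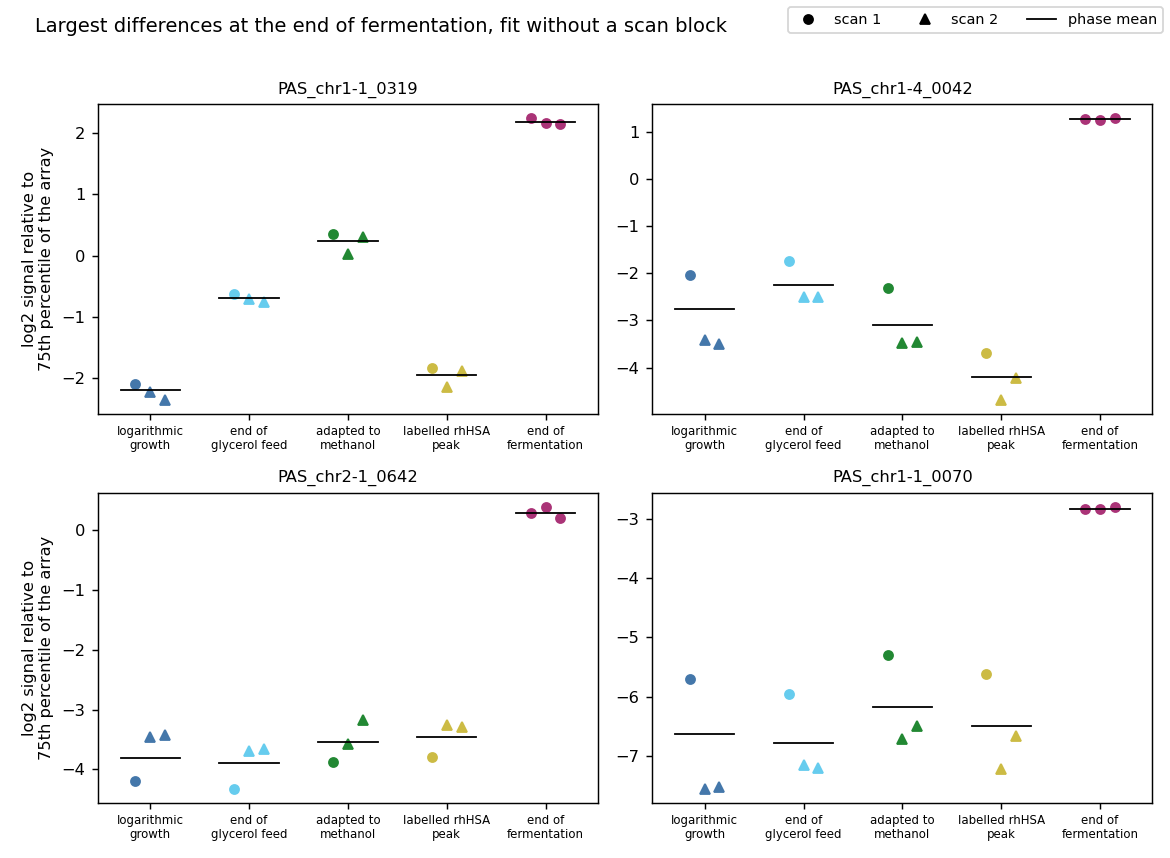
Log2 signal minus the array's 75th percentile for the 4 tags with the largest or second largest difference at the end of fermentation from some phase in the fit without a scan block, by phase. Circles are scan 1 arrays, triangles scan 2 arrays and lines phase means, in which logarithmic growth arrays 2 and 3 are averaged first. In each panel the 3 end of fermentation arrays sit apart above the other 12, at 2.14 to 2.24 for PAS_chr1-1_0319, 1.26 to 1.29 for PAS_chr1-4_0042, 0.20 to 0.39 for PAS_chr2-1_0642 and -2.84 to -2.80 for PAS_chr1-1_0070.

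The rule sets no order among the first 4 phases, but it holds each of their means at least 1 log2 unit below the end. Members are described there beside all probes or tags, and these differences are not free of that selection. Their means over the first 4 phases spanned a median range of 0.82 log2 units in the authors' table, against 0.96 over all probes, with extremes of 0.16 and 2.79. The range was under 0.5 in 24 members (15.5%, against 14.0% of all probes) and at least 2 in 12 (7.74%, against 8.02%). The members thus include flat tags and strongly varying ones in shares near those of the table. The phase next below the end of fermentation was methanol-adapted culture for 55 members (35.5%, against 32.6% of all probes with their highest of the 4 there), logarithmic growth for 41 (26.5%, against 27.9%), the end of glycerol feeding for 35 (22.6%, against 18.3%) and the arrays labelled rhHSA peak for 24 (15.5%, against 21.2%). In 83 members the next phase below it followed within 0.25 log2 units, so this rank is not firm for them. The median margin was 1.49 where methanol-adapted culture came next, 1.28 for the end of glycerol feeding, 1.26 for the arrays labelled rhHSA peak and 1.21 for logarithmic growth.

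The order of the first 4 phases differed among members. The end of glycerol feeding and methanol-adapted culture were both above logarithmic growth and the arrays labelled rhHSA peak in 52 members (33.5%, against 31.4% of all probes). The opposite order held in 26 (16.8%, against 29.9%). The arrays labelled rhHSA peak were the lowest of the 4 phases for 53 members (34.2%, against 21.0%), logarithmic growth for 43 (27.7%, against 30.9%), the end of glycerol feeding for 31 (20.0%, against 17.9%) and methanol-adapted culture for 28 (18.1%, against 30.2%). These shares are descriptions without a test.

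Between the end of glycerol feeding and logarithmic growth 28 members were called higher at the end of glycerol feeding (18.1%, against 21.5% of all tested tags) and 24 lower (15.5%, against 21.8%), while 103 passed in neither direction. By at least 2-fold, 18 were called higher (11.6%, against 8.76% of all tags) and 8 lower (5.16%, against 9.53%). The fitted differences of members ran from -1.81 to 2.59 log2 units with a median of -0.01, and the median over all tags was 0.00. With fermentor number as a replicate block, 45 were called higher (29.0%, against 29.9%) and 39 lower (25.2%, against 29.6%). With scan as a block the counts were 55 and 53, where 36.4% and 36.3% of all tags were called. The members' shares thus lay below or near those of all tags in these 3 fits, while rises of at least 2-fold took a higher share of members than of all tags. The median difference was -0.10 on scan 1 and 0.00 on scan 2, and all 27 members with a difference of at least 2-fold on scan 1 moved the same way on scan 2. No such count was made over all tags, so nothing particular to members is read from it.

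PAS_chr2-2_0338 had the largest rise at the end of glycerol feeding, with -0.81, 0.24 and 0.25 there against -3.37, -2.36 and -2.37 in logarithmic growth. The difference was 2.59 ± 0.42 log2 units (SE; 6.03-fold, limma adjusted p = 0.000317), and it was 2.56 on scan 1 and 2.61 on scan 2. The tag then averaged -0.63 ± 0.61 in methanol-adapted culture, -2.37 ± 0.67 on the arrays labelled rhHSA peak and 0.51 ± 0.04 at the end of fermentation (SD, n = 3 each). The end of fermentation arrays lay only a little above the scan 2 arrays of the end of glycerol feeding, and the margin in the authors' table was 1.38. PAS_chr4_0212 followed the same course with less spread. It had -0.82, -0.64 and -0.70 at the end of glycerol feeding, against -2.79, -2.79 and -2.78 in logarithmic growth, a rise of 2.07 ± 0.08 (SE; 4.19-fold, limma adjusted p = 6.51e-09). It averaged -0.60 ± 0.03 in methanol-adapted culture, -2.48 ± 0.07 on the arrays labelled rhHSA peak and 1.28 ± 0.03 at the end of fermentation (SD, n = 3 each).

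Other members fell at this step. PAS_chr1-3_0153 had -1.29, -1.70 and -1.75 at the end of glycerol feeding, against 0.53, 0.11 and 0.07 in logarithmic growth, and fell by 1.81 log2 units with an SE of 0.19 (3.52-fold, limma adjusted p = 1.06e-05). It was back at 0.40 ± 0.22 in methanol-adapted culture, stood at -0.30 ± 0.32 on the arrays labelled rhHSA peak and reached 1.68 ± 0.05 at the end of fermentation (SD, n = 3 each). PAS_chr4_0832 had -1.05, -0.45 and -0.50 at the end of glycerol feeding, against 0.54, 1.13 and 1.05 in logarithmic growth, and fell by 1.57 with an SE of 0.26 (2.98-fold, limma adjusted p = 0.000417). For both tags the arrays of these phases did not overlap. The change of PAS_chr1-3_0153 was -1.82 on scan 1 and -1.81 on scan 2, and that of PAS_chr4_0832 was -1.59 and -1.57.

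Between methanol-adapted culture and the end of glycerol feeding 19 members were called higher in methanol-adapted culture (12.3%, against 9.2% of all tested tags) and 22 lower (14.2%, against 19.2%), and 114 passed in neither direction. By at least 2-fold, 6 were called higher (3.87%, against 2.11% of all tags) and 4 lower (2.58%, against 5.04%). The balance of these calls depended on the scaling, among members and among all tags. Of the member calls 46.3% were rises as given, 63.0% with median centring (17 higher, 10 lower), 62.1% with quantile normalization (18 and 11), 52.2% with normexp background correction (12 and 11) and 59.1% in the authors' table (65 and 45). Of the calls over all tags, rises made up 32.4% as given, 40.2% with median centring, 46.4% with quantile normalization, 32.3% with normexp and 49.9% in the authors' table. The median over all tags was -0.02 with quantile normalization, against -0.13 as given. With fermentor number as a replicate block 39 members were called higher (25.2%, against 15.8% of all tags) and 35 lower (22.6%, against 30.3%), and with scan as a block 49 (23.2% of all tags) and 55 (40.4%). Without array 2 or without array 3 of the end of glycerol feeding, 11 members were called lower. Member differences ran from -1.61 to 2.05 with a median of -0.07, which was 0.03 on scan 1 and -0.09 on scan 2.

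PAS_chr1-3_0215 had 0.82, 0.97 and 0.40 in methanol-adapted culture, against -1.29, -1.33 and -1.35 at the end of glycerol feeding, a rise of 2.05 ± 0.14 log2 units (SE; 4.15-fold, limma adjusted p = 1.16e-06). It averaged -1.23 ± 0.14 on the arrays labelled rhHSA peak and 2.31 ± 0.07 at the end of fermentation (SD, n = 3 each), so methanol-adapted culture and the end were its 2 high phases. PAS_chr4_0832, which fell at the step before, had 0.82, 1.66 and 1.47 in methanol-adapted culture, and rose by 1.98 ± 0.26 (SE; 3.96-fold, limma adjusted p = 0.000165). It averaged 0.32 ± 0.41 on the arrays labelled rhHSA peak and 2.69 ± 0.07 at the end of fermentation (SD, n = 3 each).

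PAS_chr3_0076 had -1.16, -0.52 and -0.68 in methanol-adapted culture, against 0.47, 1.03 and 0.98 at the end of glycerol feeding, and fell by 1.61 log2 units with an SE of 0.23 (3.05-fold, limma adjusted p = 0.000307). PAS_chr3_0259 had -4.09, -4.64 and -4.42 in methanol-adapted culture, against -3.35, -2.88 and -3.03 at the end of glycerol feeding, and fell by 1.30 with an SE of 0.18 (2.45-fold, limma adjusted p = 0.000214). The scans differed in the size of this fall, with a change of -0.74 for scan 1 and of -1.57 for scan 2, and it was not called with normexp background correction. It averaged -5.76 ± 0.21 on the arrays labelled rhHSA peak and -1.64 ± 0.16 at the end of fermentation (SD, n = 3 each), so the phase before its highest level was its lowest.

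Between the arrays labelled rhHSA peak and methanol-adapted culture the members were called lower more often than higher. On the arrays labelled rhHSA peak 48 members were lower (31.0%, against 22.2% of all tested tags) and 24 higher (15.5%, against 26.3%), and 83 passed in neither direction. By at least 2-fold, 28 were lower (18.1%, against 9.85% of all tags) and 9 higher (5.81%, against 14.0%). The median difference of members was -0.28 log2 units, against 0.06 over all tags, with a range from -2.39 to 2.42. All tags include some that could not be members. In the authors' table the median was -0.30 for members and -0.05 over all its probes. In the scanner values the median of members was -0.32 on scan 1 and -0.25 on scan 2, and all 37 members with a difference of at least 2-fold on scan 1 moved the same way on scan 2. The same count was not made over all tags, so it is not read as particular to members. With fermentor number as a replicate block 66 were lower (42.6%, against 28.7%) and 35 higher (22.6%, against 34.5%). With scan as a block 78 were lower (34.2% of all tags) and 41 higher (40.4%). Of the member calls 33.3% were rises as given and 28.1% to 34.7% with median centring, quantile normalization, either block or the authors' table. With normexp background correction they were 40.0% (22 higher, 33 lower), and there the member median was 0.05 where that of all tags was 0.21. Of the calls over all tags, rises made up 54.3% as given and 62.3% with normexp. They made up 53.8% to 58.3% with median centring, quantile normalization or either block. In the authors' table they made up 47.6% (1519 higher, 1674 lower), so falls were the more frequent there over all probes too.

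**Figure D4:**
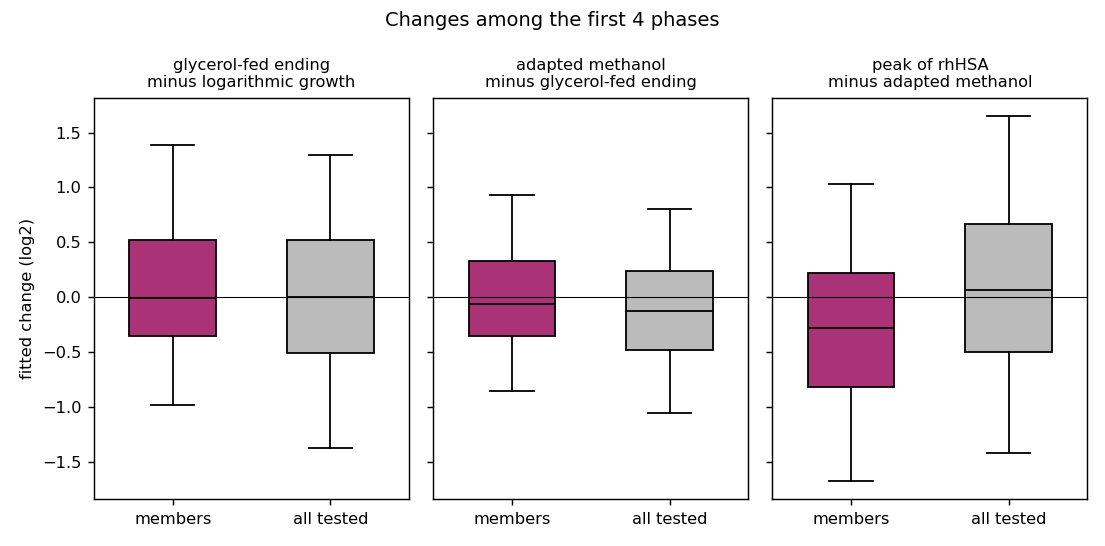
Fitted change in log2 units between successive phases among the first 4, for the 155 members (purple) and all 5024 tested tags (grey). Boxes span the 25th to 75th percentile with the median as a line, and whiskers the 5th to 95th percentile. The member median is -0.01 at the first step, -0.07 at the second and -0.28 at the third, beside 0.00, -0.13 and 0.06 for all tags.

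PAS_chr1-4_0547 had the largest fall at this step, with -0.62, -0.87 and -0.53 on the arrays labelled rhHSA peak, against 1.85, 1.79 and 1.52 in methanol-adapted culture. It fell by 2.39 log2 units with an SE of 0.13 (5.25-fold, limma adjusted p = 3e-08). Its mean of 3.05 ± 0.04 at the end of fermentation (SD, n = 3) was its highest, and its mean in logarithmic growth of -0.61 ± 0.17 (SD, n = 2) was close to that of the arrays labelled rhHSA peak. PAS_chr1-1_0028 had -4.15, -3.45 and -3.29 on the arrays labelled rhHSA peak, against -1.90, -1.33 and -1.09 in methanol-adapted culture, and fell by 2.19 with an SE of 0.28 (4.58-fold, limma adjusted p = 3.99e-05). It was also low in logarithmic growth, at -3.95 ± 0.42 (SD, n = 2), and averaged -0.72 ± 0.04 at the end of fermentation (SD, n = 3).

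The opposite course was taken by PAS_chr3_0076, which had 1.37, 2.02 and 1.52 on the arrays labelled rhHSA peak and so rose by 2.42 ± 0.23 log2 units over methanol-adapted culture (SE; 5.36-fold, limma adjusted p = 3.5e-06). Its end of fermentation values of 2.29, 2.27 and 2.39 lay close above array 2, which is of scan 2, in the scanner signal. Its margin on scan 1 alone was 0.95. PAS_chr2-2_0489 had 2.15, 2.91 and 2.26 on the arrays labelled rhHSA peak, against -0.01, 0.81 and 0.38 in methanol-adapted culture, and rose by 2.05 ± 0.30 (SE; 4.14-fold, limma adjusted p = 0.000109). Its end of fermentation values of 2.87, 2.75 and 2.92 overlapped with array 2 of the phase labelled rhHSA peak, which is of scan 2. Its margin was 0.70 on scan 1 alone and 1.09 in the authors' table.

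**Figure D5:**
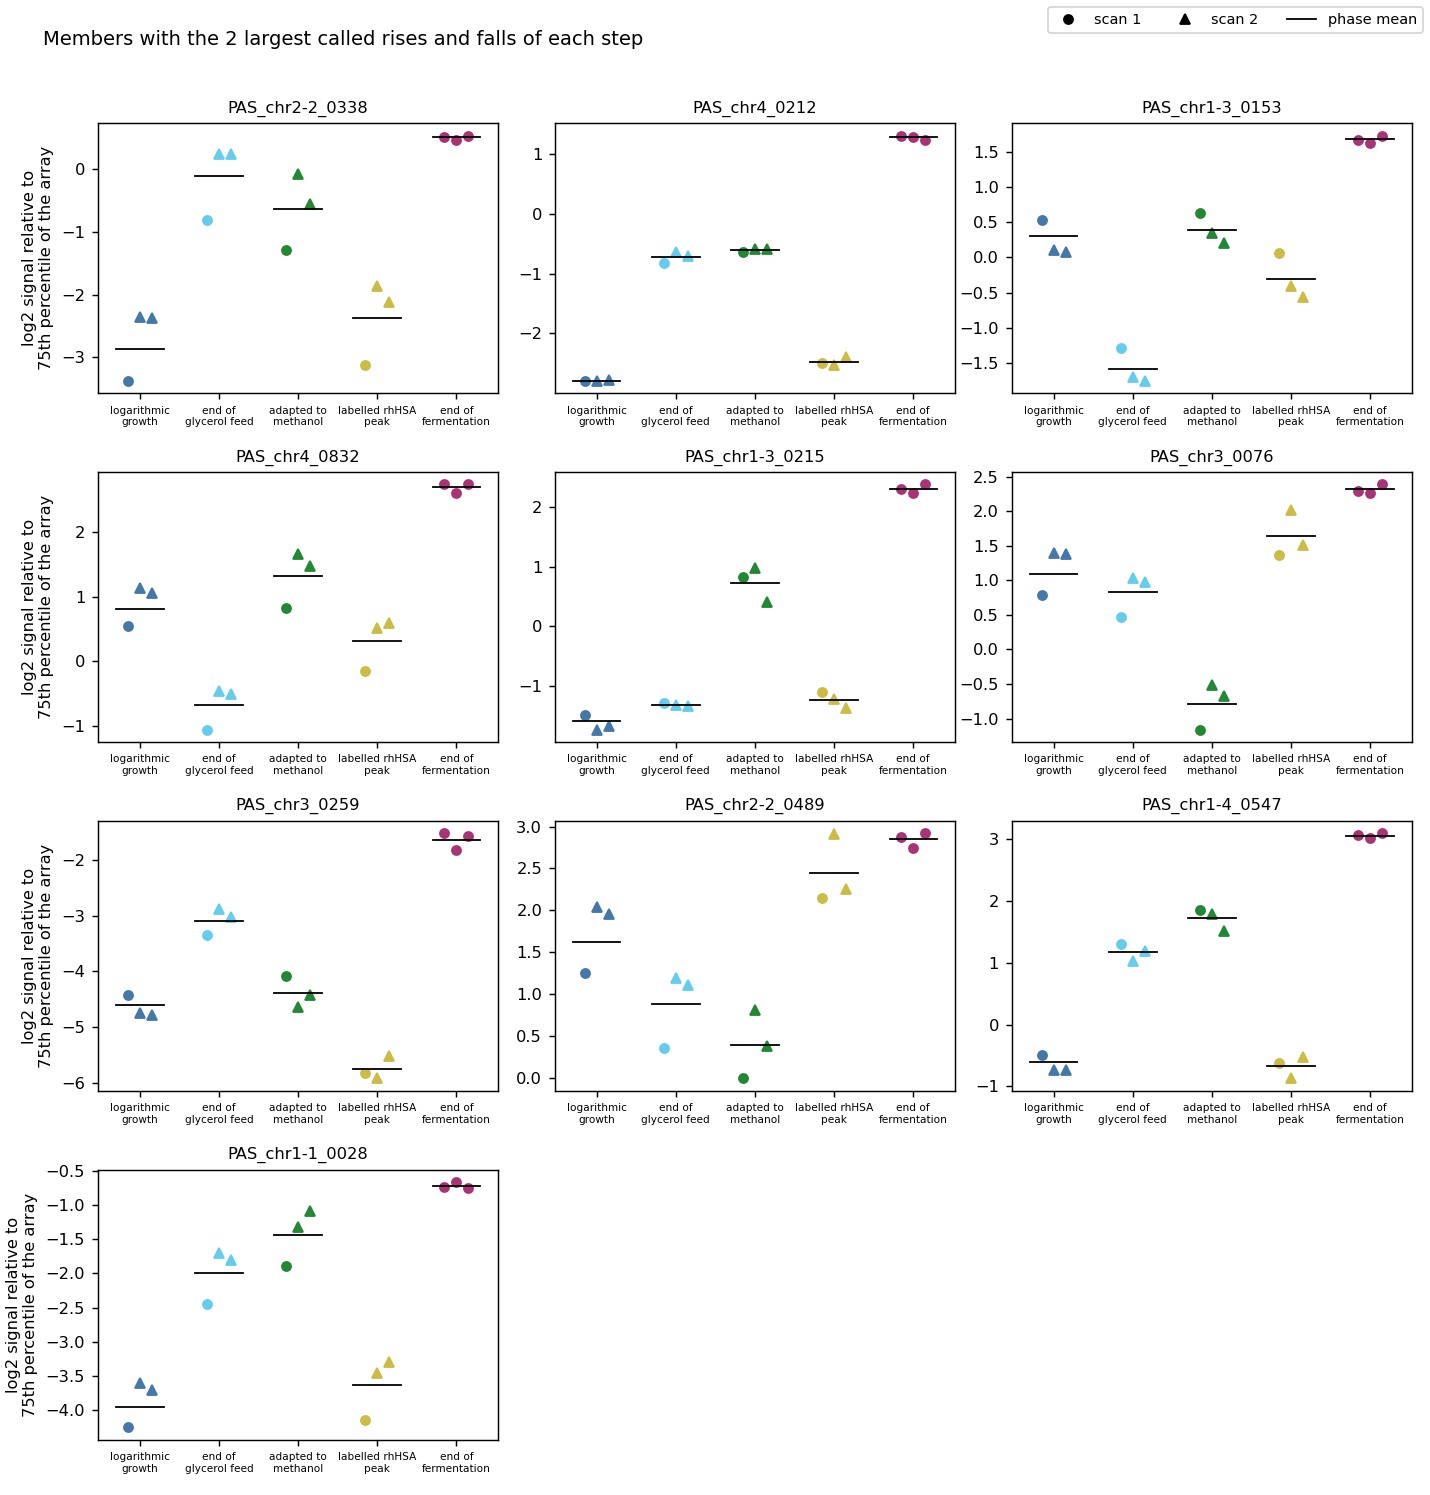
Log2 signal minus the array's 75th percentile for the 10 members that had the 2 largest called rises or the 2 largest called falls of a step between successive phases among the first 4. Circles are scan 1 arrays, triangles scan 2 arrays and lines phase means, in which logarithmic growth arrays 2 and 3 are averaged first. The tags take different courses in the first 4 phases, such as high at the end of glycerol feeding (PAS_chr2-2_0338), high in methanol-adapted culture (PAS_chr1-3_0215) or low there (PAS_chr3_0076), and all have their highest mean at the end of fermentation.

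The first and the third step share no arrays. A rise at the end of glycerol feeding over logarithmic growth and a fall on the arrays labelled rhHSA peak against methanol-adapted culture were called together for 23 members (14.8%, against 12.9% of all tags). The mirror image, a fall at the first of these steps and a rise at the other, was called for 11 (7.1%, against 14.7%). With scan as a block the counts were 42 (27.1%, against 22.9%) and 27 (17.4%, against 25.9%). PAS_chr2-2_0338 and PAS_chr4_0212 are examples of the former course in their values. That course was called for a minority of members, in a share not far from that of all tags.

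Locus tags carry a sequence name and a running number, and the members were spread over most of the sequence names in the table. PAS_chr3 held 36 members of its 891 probes (4.04%), PAS_chr1-4 held 25 of 533 (4.69%), PAS_chr4 held 22 of 754 (2.92%) and PAS_chr2-1 held 20 of 657 (3.04%). PAS_chr1-3 held 17 of 244 (6.97%). Of 238 probes whose number was 1 away from that of a member, 14 (5.88%) were members themselves, in 7 adjacent pairs, beside 3.96% of the table. The shares at distances of 2, 3, 5 and 10 were 2.78%, 5.36%, 5.45% and 5.5%. Members with adjacent numbers were thus few, and the share next to a member was close to that at distance 10.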

How the data were processed

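Each array was hybridised with Cy3-labelled cRNA of 1 fermentor at 1 phase, per the labels' protocols. Linear spot intensity, background-subtracted array by array per the file headers, was read from the deposited scanner files. The headers give Agilent Feature Extraction 10.7.3.1; the submitters' processing notes name 9.1. The other columns used are spot flags in the deposited files (saturated, above background, outlier). The authors' deposited table holds log2 values; their medians (12.57 to 12.69) and correlation with the scanner values (r 0.983 to 0.988) set scale and direction, while for the normalization the sources used here give nothing.

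Without control and outlier spots, the processed signal was put on the log2 scale, each array's 75th percentile was subtracted and a probe's 3 spots were averaged. This left 2.26% of probe values missing, none of them in members. Tags with at least 2 of 3 spots well above background on all arrays of a phase were tested (5024). With limma 3.58.1 (lmFit, contrasts.fit and eBayes, under R 4.3.3) a mean for each of the 5 phases was fitted over the 15 arrays. The fit was tested on simulated data with independent noise on each array. These held no scan effect and no near-identical arrays, so the test does not bear on either. Tables and figures were made with Python 3.11.15, pandas 2.3.3 and matplotlib 3.10.9. The labels name separate fermentors, so replicates are separate cultures as far as the labels say.

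Members, lists and tests were chosen with earlier results of these data known. The named tags are the 2 largest called rises and the 2 largest called falls of members per comparison, and for the end of fermentation the 2 largest rises. Planned lists of named genes and promoter motifs were not analysed here, since the tags have no names or sequences. Normexp background correction used the median spot signal in place of the planned mean, and is counted as an alternative added after seeing the data.

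Every fermentor number recurs in all phases of the labels, and this pairs the samples by culture. Among the first 4 phases, arrays of fermentor 1 deviated from their phase means with correlations of 0.923 to 0.944, beside 0.78 to 0.917 for fermentor 2 and 0.454 to 0.892 for fermentor 3. With the end of fermentation they ran from -0.036 to 0.072, 0.165 to 0.247 and -0.301 to -0.195. Fermentor 1 coincides with scan 1 in the first 4 phases, so the scan and the culture cannot be told apart in these values. Alternatives were other scalings, the authors' values, fermentor or scan as blocks, other thresholds and each array left out in turn.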

Additional observations from a re-analysis of the deposited data

How the results depend on the processing

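The rule gave 376 probes with a margin of 0.58 and 48 with 1.5, against 155 with 1, and 151 to 158 when single arrays were left out. On scanner values it gave 197 probes, 88 of them members, and 126 with scan as a block, 108 of them members. The replicate block (fermentor number, which pairs the arrays) and the other alternatives kept each count of members called at the end of fermentation within 1.5 times its value as reported. Leaving out single arrays gave 133 to 139 members against logarithmic growth, 128 to 137 against the end of glycerol feeding, 127 to 141 against methanol-adapted culture and 131 to 141 against the arrays labelled rhHSA peak.

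Among the first 4 phases the counts moved further, and the cause was not tested. Shares of all tags called higher and lower moved as well with scan as a block. They went from 21.5% and 21.8% to 36.4% and 36.3% at the first step. At the second they went from 9.2% and 19.2% to 23.2% and 40.4%, and at the third from 26.3% and 22.2% to 40.4% and 34.2%. The member counts below are therefore not read as particular to the members. For the end of glycerol feeding against logarithmic growth, members higher and lower numbered 28 and 24 as reported, 45 and 39 with the replicate block, 55 and 53 for scan as a block, 54 and 50 for scan as a random block, 55 and 52 with scan and the replicate block, 58 and 52 in the authors' table, 56 and 51 there with scan as a block, and 18 and 8 by at least 2-fold; leaving out arrays gave 28 to 32 and 22 to 27. For methanol-adapted culture against the end of glycerol feeding, 19 and 22 became 39 and 35 with the replicate block, 49 and 55 for scan as a block, 46 and 51 for scan as a random block, 49 and 55 with both, 65 and 45 in the authors' table, 64 and 44 there with scan as a block, 9 and 5 in a fit of the 6 arrays alone, 12 and 11 with normexp, and 6 and 4 by at least 2-fold; leaving out arrays gave 16 to 22 and 11 to 23. Lower members there numbered 10 with median centring, 11 with quantile normalization and 10 at an adjusted p of 0.01. For the arrays labelled rhHSA peak against methanol-adapted culture, 24 and 48 became 35 and 66 with the replicate block, 41 and 78 when scan was a block, 39 and 77 when scan was a random block, and 40 and 79 under both. Lower members numbered 90 in the authors' table and 89 there with scan as a block. Higher members numbered 11 in a fit of the 6 arrays alone and 14 at an adjusted p of 0.01, and a 2-fold minimum left 9 higher and 28 lower; leaving out arrays gave 18 to 26 and 44 to 51.

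Of 560 refits of the 20 named changes, 559 kept direction and call. The exception was PAS_chr3_0259 in methanol-adapted culture against the end of glycerol feeding, at -1.30 with normexp. The named changes were picked as the largest called among members, and those at the end of fermentation also through the rule. Many refits left out a single array, so the share kept was largely set in advance and carries no support. The fit with scan as a block on the authors' table and the normexp fit were chosen after seeing the data.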

Other observations

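The authors' table leaves out 1124 of the 5039 probes. Their median scanner level was -0.92, against -1.74 for the probes in the table, as log2 signal minus the 75th percentile of the array. By the same margin of 1, 17 of them (1.51%) were highest at the end of fermentation on scan 1 alone, against 107 (2.73%) of the probes in the table. In the scanner means of all arrays 41 of them met it.

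Probes with tag numbers 1 away from a member had a median margin of -0.32, and 88 of 238 (37.0%) were highest at the end of fermentation, beside -0.46 and 27.6% over the whole table. At a distance of 2 numbers the share was 25.9%, and at 10 numbers it was 34.4%. Of the 14 tags named in the text, 3 have an adjacent member (PAS_chr4_0212, PAS_chr1-3_0153 and PAS_chr1-4_0547).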
